A study of Homo sapiens with 8 samples.

Results

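CCND1, CDC6, TOP2A and AURKB are genes of the cell division machinery, and 9 of the 10987 N6-methyladenosine (m6A) peaks in the table analysed here were assigned to them. The members are every peak that carries 1 of these 4 gene names. The genes themselves were chosen by measured values of the same comparison, as cell cycle genes with a peak called lower, so the direction of their calls is a description and carries no test. The study used BCPAP cells, an established line from a papillary thyroid carcinoma, either as controls or with a knockdown of METTL3. RNA fragments were sequenced as input or after pull-down with an m6A antibody, which gave 8 libraries in 4 groups of 2: control input, control immunoprecipitate, METTL3 knockdown input and METTL3 knockdown immunoprecipitate. The knockdown libraries carry the titles sh1 and sh3, so each label stands on a single library of each type. The titles also carry a letter, A for 1 control and sh1 and B for the other control and sh3. Letter and sh label thus cannot be told apart. The labels do not say what the letters stand for, or whether the control pair came from separate cultures.

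METTL3 is the catalytic subunit of the enzyme complex that places m6A on messenger RNA while it is made in the nucleus. Marked adenosines cluster near stop codons and in 3' untranslated regions (UTRs), where reader proteins bind them and affect how long a transcript lasts and how well it is translated. The 4 genes act in order through the cell cycle: cyclin D1 (CCND1) activates the kinases CDK4 and CDK6 in G1, CDC6 loads the replicative helicase onto origins of replication, topoisomerase II alpha (TOP2A) untangles replicated DNA, and aurora kinase B (AURKB) corrects chromosome attachment to the spindle and acts in cytokinesis.

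What was analysed is the comparison that the authors deposited, which lists for each peak a log2 fold change, its p-value and its false discovery rate, or FDR. No value per library was analysed, so the spread between libraries and the depth are unknown, and no interval can be given. "Lower" means lower in the knockdown, with control taken as the reference, which the header does not name. If the reference is the other condition, every direction turns around. Called means an FDR under 0.05 in the authors' deposited table. The rows analysed hold 0 peaks of METTL3, so its depletion was not checked here. Of 7 thyroid genes looked up, 1 had a peak (PAX8, a thyroid transcription factor), which is no measure of expression. How the input libraries enter the fold change is not stated. The cells were sequenced in bulk, so a change in the share of cells in one phase of the cycle and a change within each cell cannot be told apart.

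Of the 9 member peaks, 8 were called lower, 0 were called higher and 1 was not called. Over all peaks of the authors' deposited table, 10.6% were called lower and 6.52% higher. All 9 fold changes were negative, as were 55.3% of all peaks, and the 9 values ran from -0.83 to -0.15 with a median of -0.32, against a median of -0.24 over all peaks. The member nearest to the threshold from inside is a CCND1 peak (FDR 0.0186), and the 1 peak outside is the 5' UTR peak of CDC6 (FDR 0.404), both by the authors' deposited table. Counts with other thresholds were close to each other: 7 peaks at an FDR under 0.01 (5.83% of all peaks called lower), 8 at a p under 0.01 (13.9%), 8 with Benjamini-Hochberg values recomputed over the table (15.0%) and 7 when the log2 fold change also had to be 0.2 or more in size (9.75%). Because the genes were picked for such calls, nothing is read from the distance between these counts and the shares over all peaks.

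**Figure D1:**
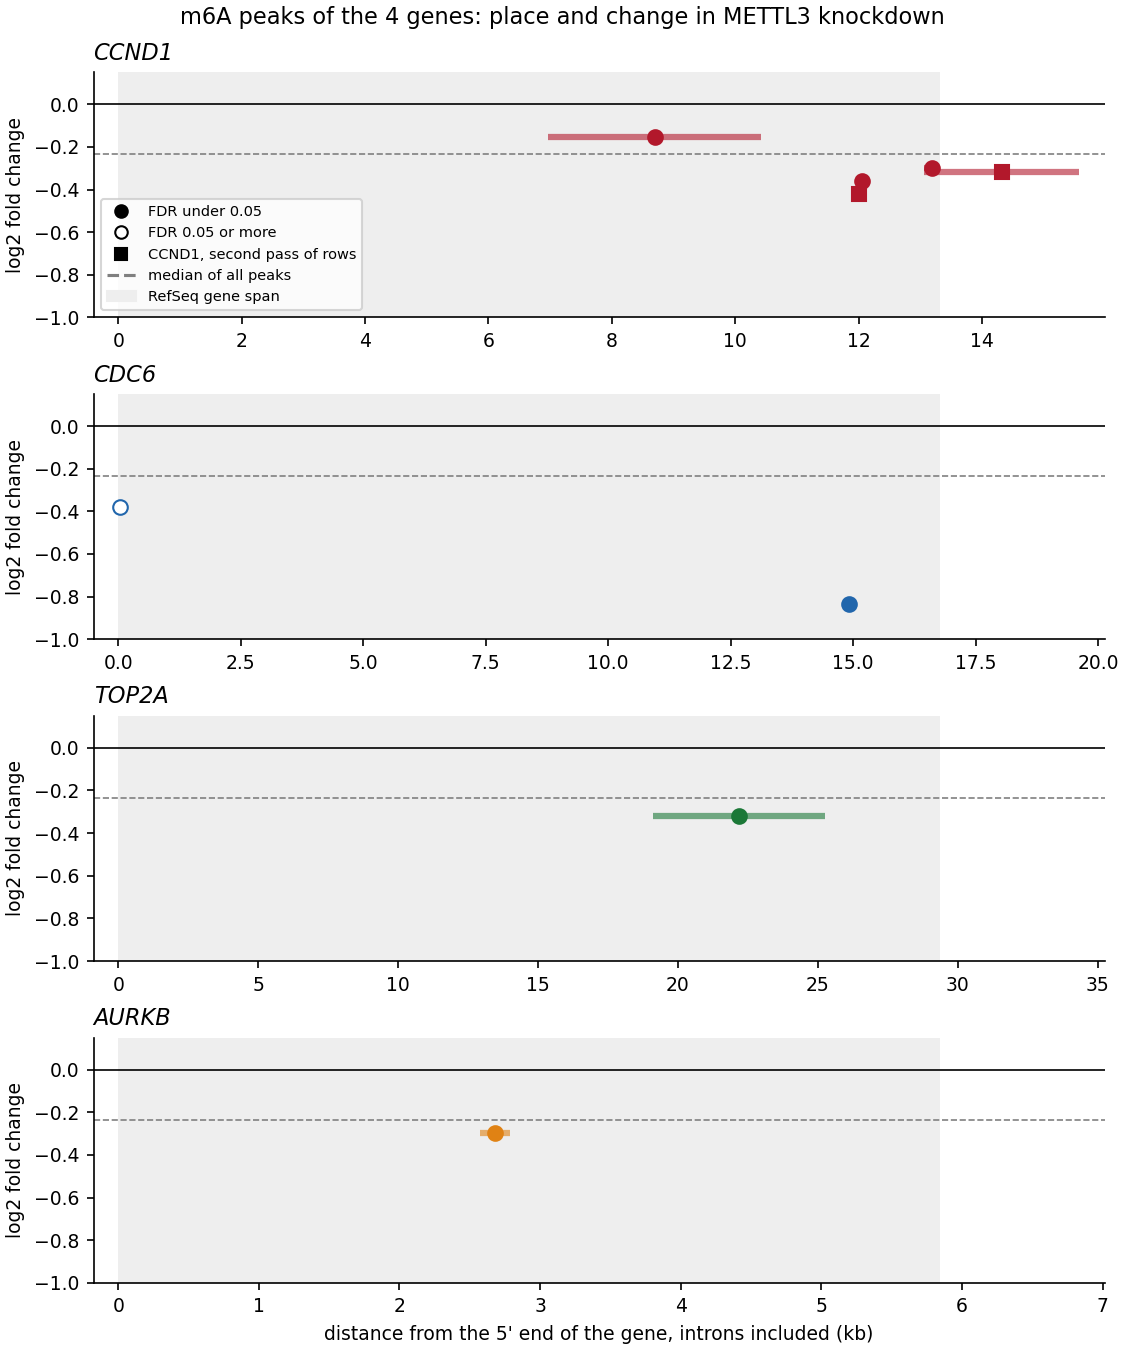
Place and log2 fold change of each m6A peak of the 4 genes. The horizontal axis is the distance in kb from the 5' end of the RefSeq gene with introns included, bars are peak spans, filled symbols have an FDR under 0.05, squares are the 2 CCND1 peaks that stand in the second pass of the table's rows, and the dashed line is the median of all peaks, -0.24. The 5 CCND1 peaks lie in 3 separate places of the distal part of the gene, and the CDC6 peak near the 3' end is the lowest of the 9 at -0.83.

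CCND1 held the most peaks of the 4 genes, 5 in 3 separate places on chromosome 11, and all 5 were called lower (ENSG00000110092, GRCh38). All are labelled 3' UTR by the authors' annotation. The gene spans 69641156 to 69654474 in RefSeq (GRCh38.p14), a length of 13319 bases, and its annotated start matches the distances in the table, which makes it a gene of the plus strand. The most upstream peak, 69648124 to 69651570, began 6968 bases past the start and covered 3447 bases from 52.3% to 78.2% of the gene, so its span is wider than a 3' UTR label alone would tell. It had the smallest change of the 9 members, a log2 fold change of -0.15 (0.899-fold, FDR 0.00575 in the authors' deposited table). It is also the 1 member whose sign turned when the median of all peaks was subtracted, to 0.082.

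Further downstream, a pair of overlapping CCND1 peaks lay between 89.5% and 90.8% of the gene. The shorter, 69653157 to 69653247, had -0.36 (0.780-fold, FDR 0.0186 in the authors' deposited table). The longer, 69653076 to 69653256, contains it whole and had -0.42 (0.747-fold, FDR 0.00708 in the authors' deposited table), the largest decrease in this gene. At the end of the transcript stood a second overlapping pair. One peak, 69654205 to 69654474, stops at the last base of the RefSeq gene and had -0.30 (0.812-fold, FDR 2.57e-05 in the authors' deposited table). Its partner, 69654213 to 69656731, shares 262 bases with it, runs 2257 bases beyond the gene's end and had -0.32 (0.803-fold, FDR 8.32e-06 in the authors' deposited table). The change thus differed along CCND1 by 0.268 between its weakest and strongest peaks on the log2 scale, with the smaller value upstream and the 4 others between -0.42 and -0.30. No error can be attached to that difference.

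The order of the rows bears on how many CCND1 measurements there are. The table has no strand column, but its rows run through each chromosome in a first and a second pass. Of first-pass peaks whose gene has a strand in the RefSeq promoter table, 88.7% (3563 of 4019) were on plus-strand genes, and of second-pass peaks 87.4% (3138 of 3591) were on minus-strand genes. CCND1 has 3 peaks in the first pass and 2 in the second, and the latter are the wider partner of each overlapping pair, including the peak that reaches past the gene's end. In this way 428 overlapping pairs of peaks of 1 gene stand in opposite passes of the authors' deposited table, 92.5% of them with the same sign and with a median difference of 0.118 between their log2 fold changes. The CCND1 pairs differed by 0.063 and 0.016. Whether both peaks of a pair were counted from the same reads was not tested. Second-pass peaks were mostly on minus-strand genes, while CCND1 is a gene of the plus strand. Whether its 2 second-pass peaks were called on the strand opposite to the gene was not tested. Without the 2 second-pass peaks, a choice made after the data were seen, 6 of 7 member peaks were called lower, and all 3 of CCND1.

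**Figure D2:**
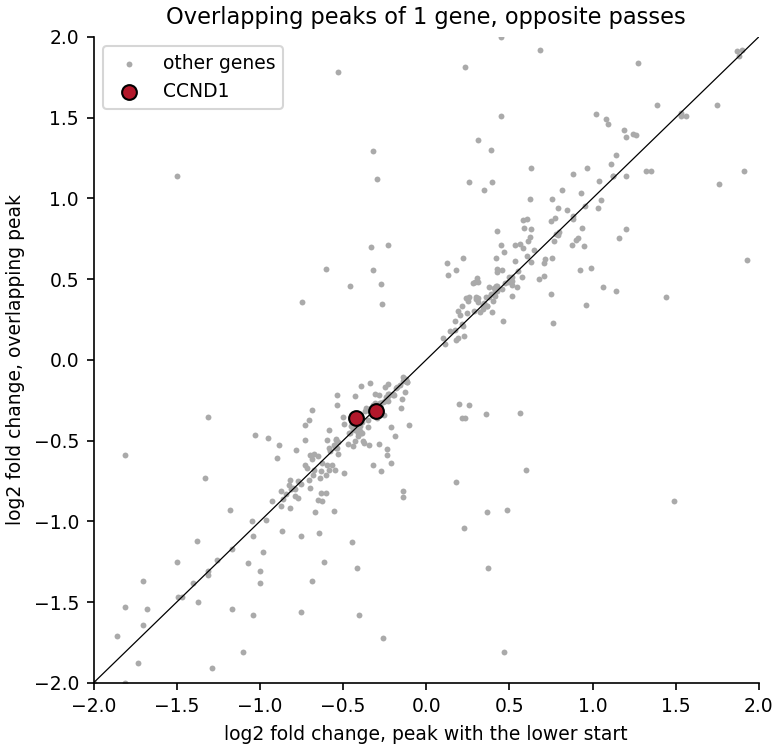
Log2 fold changes of overlapping m6A peaks that were assigned to 1 gene but stand in opposite passes of the table. Each point is a pair, with the peak of the lower start on the horizontal axis, the line marks equal values, and 50 of the 428 pairs lie beyond the axis limits of 2. Both CCND1 pairs lie close to the line, with differences of 0.063 and 0.016.

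Genes with as many peaks as CCND1 are few. Of 7081 named genes in the authors' deposited table, 4738 had a single peak and 100 had at least 5. Among these 100, all peaks were called lower in 3: CCND1, CTNND1 with 7 peaks and B3GNT4 with 8. These counts include overlapping peaks: the 5 of CCND1 lie in 3 separate places, and peaks of B3GNT4 also overlap one another. Of the 804 genes with at least 3 peaks, 7 had all of them called lower, and of all 7081 genes, 628. CTNND1 encodes p120 catenin, which stabilises cadherins, and B3GNT4 a glycosyltransferase; both were noticed after their values were seen. The nearest peak of another gene on the distal side of CCND1 belonged to LTO1, 16501 bases away, at 0.37 (FDR 0.229 in the authors' deposited table).

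CDC6 had 2 peaks at opposite ends of the gene (ENSG00000094804, chromosome 17, 40287879 to 40304657 in RefSeq). The 3' UTR peak, 40302688 to 40302897, began 14809 bases past the start, 1760 bases short of the gene's end, and was lower by a log2 fold change of -0.83 (0.561-fold, p = 0.000138, FDR 0.00389 in the authors' deposited table). This was the largest decrease among the 9 members. Among all 4695 peaks of 3' UTRs, 17.3% had a lower fold change, and of the 745 that were called lower, 117 (15.7%) lay below it. The median of all 3' UTR peaks was -0.30, and the CDC6 peak stayed at -0.54 once that was subtracted.

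The 5' UTR peak of CDC6 covers 61 bases, 40287879 to 40287939, and begins at the first base of the RefSeq gene. It had -0.38 (0.770-fold, p = 0.159, FDR 0.404 in the authors' deposited table) and was not called. Of all peaks in the table, 1.08% were narrower. The first 30 bases of this peak are shown because it is the 1 member whose start lies in the RefSeq promoter sequences (GRCh38.p14, plus strand, chr17:40287879-40287908), with the base at the annotated start in capitals.
CDC6 5' UTR peak: Attcggatttggcgcgagcgcggctggagt
Searched on the strand of the transcript only, the 50 of its 61 bases that the RefSeq window holds contained GGAC, the core of the usual m6A consensus, 0 times. GGACT, which contains GGAC, was likewise found 0 times. Of 35116 RefSeq windows of the same 50 bases after a start, 18.9% hold GGAC and 4.90% hold GGACT. The first base is A, as in 44.4% of these windows. As background, antibodies against m6A also bind m6Am, a mark next to the cap that another enzyme places, and the table does not separate them.

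The 3' UTR peak of CDC6 had a lower fold change than its 5' UTR peak by 0.455 on the log2 scale. The same order was seen in 165 of the 289 genes that had exactly 1 peak in each UTR (57.1%), with a median difference of -0.10 in the authors' deposited table, and 37.0% of them had a larger drop from 5' to 3' than CDC6. The difference between the CDC6 peaks has no error of its own, so the 1 call and the 1 missed call do not show that they differ. The closest peak upstream of CDC6 was in the 3' UTR of WIPF2, an actin regulator, 7070 bases away, at -0.45 (FDR 0.0724 in the authors' deposited table).

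**Figure D3:**
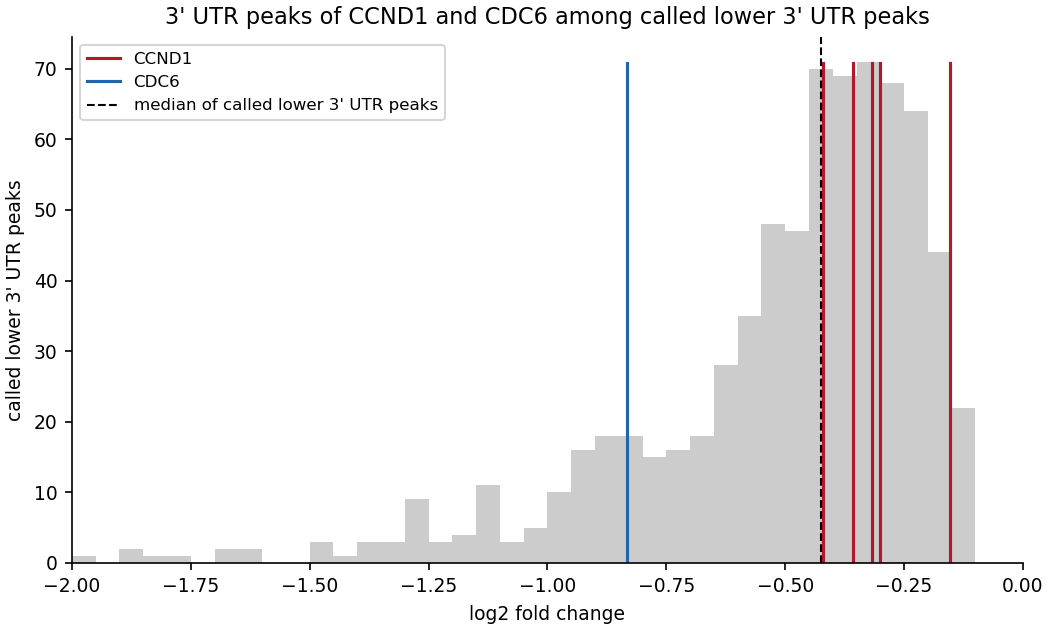
Histogram of the log2 fold changes of 3' UTR peaks called lower, with the 3' UTR peaks of CCND1 and CDC6 as vertical lines. The dashed line is the median, -0.42, and 14 of the 745 peaks lie beyond -2. The 5 CCND1 peaks lie on the side of smaller decreases, the nearest at -0.42, and the CDC6 peak lies at -0.83.

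TOP2A had 1 peak, on chromosome 17 from 40392626 to 40398782 (ENSG00000131747), in a gene whose bounds lie 83868 bases from those of CDC6. It was lower by a log2 fold change of -0.32 (0.801-fold, FDR 2.82e-09 in the authors' deposited table). By FDR it ranked at 115 of 10987 peaks, ahead of all other members. The gene lies on the minus strand, and the peak begins 19114 bases from its 5' end, is labelled exon 26 of 35, and covers 6157 bases of genome with introns, wider than 89.7% of all peaks. Which exons contribute to it was not analysed here. In the authors' deposited table the median of all exon peaks was 0.23, so that TOP2A stood at -0.55 against its own region but at only -0.086 against all peaks. By rank its place was nearly the same in both, with 42.6% of exon peaks and 44.1% of all peaks at a lower fold change. Of 199 exon peaks called lower, 155 (77.9%) had a larger decrease. TOP2A is the 1 member that stands in a short block of 305 rows at the end of the table, of which 13.8% were called against 17.2% of the 10682 rows before it. Why these rows stand apart was not tested.

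AURKB had 1 peak too, on chromosome 17 from 8207791 to 8208000 (ENSG00000178999), with a log2 fold change of -0.30 (0.815-fold, p = 0.000117, FDR 0.00339 in the authors' deposited table). The authors' annotation calls it 5' UTR. On the 5845 bases of the RefSeq gene, which lies on the minus strand, the peak sits 2575 to 2784 bases from the 5' end, between 44.1% and 47.6% of the gene, so the label does not mean that it lies at the start of the gene. Of the 2538 peaks labelled 5' UTR in the authors' deposited table, 1845 touch the annotated start and 271 lie more than 2000 bases from it, as AURKB does. The AURKB peak shrank to -0.060 when the median of all peaks was subtracted and to -0.16 against the median of 5' UTR peaks.

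The decreases of 3 of the 4 genes lay near the middle of all fold changes. In CCND1, the peak with the smallest p is 69654213 to 69656731, a second-pass peak that runs 2257 bases past the gene's end. For the peak of each gene with the smallest p, CCND1 (-0.32), TOP2A (-0.32) and AURKB (-0.30) had 44.4%, 44.1% and 46.1% of all peaks of the authors' deposited table below them, while CDC6 had 20.4% below. Among the peaks called lower in the same region, 69.4%, 77.9% and 73.5% had a larger decrease than these 3, against 15.7% for CDC6. By region, 15.9% of 3' UTR peaks, 8.79% of 5' UTR peaks and 5.30% of exon peaks were called lower. Small changes were often called: of the 663 peaks with an absolute log2 fold change under 0.2, 22.6% were called in the authors' deposited table, against 8.69% of the 3612 peaks at 1 or more.

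**Figure D4:**
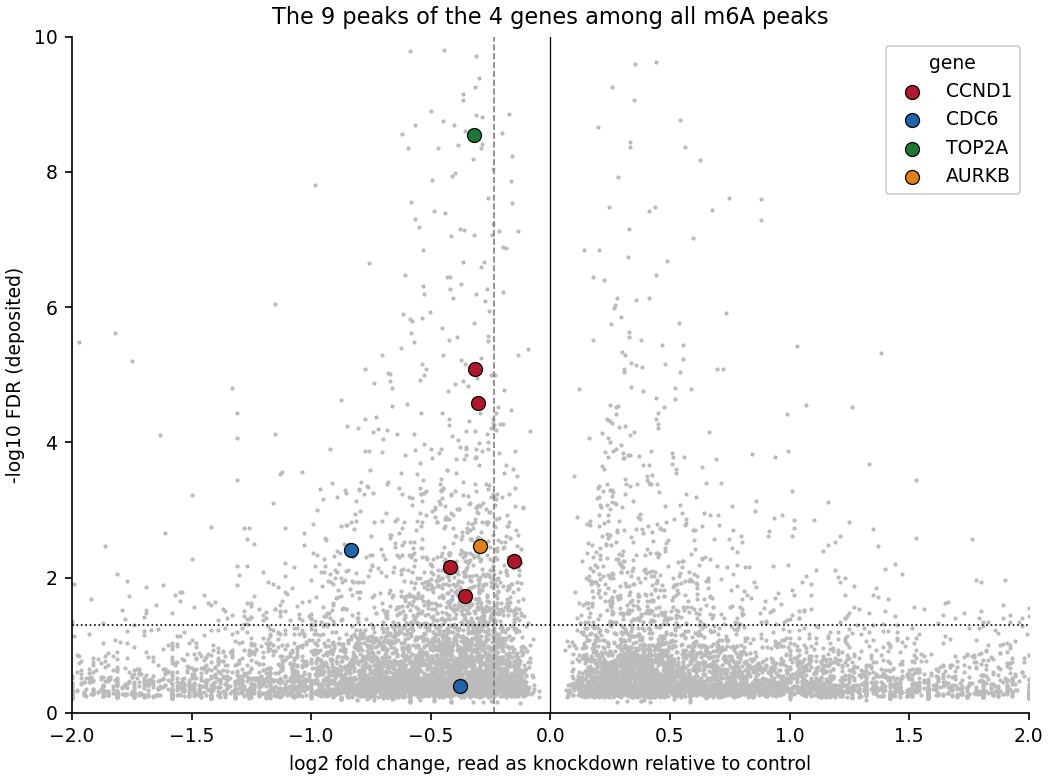
Log2 fold change against -log10 FDR of m6A peaks, both as deposited, with the 9 peaks of CCND1, CDC6, TOP2A and AURKB in colour. Grey points are other peaks, the dotted line is an FDR of 0.05, the dashed line is the median fold change of all peaks, -0.24, and 1265 of 10987 peaks lie beyond the axis limits. Of the members, the CDC6 3' UTR peak at -0.83 stands farthest from the dashed line, and TOP2A has the smallest FDR at 2.82e-09.

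Other genes of the same processes were described with 1 peak per gene, that with the smallest p. Of 131 genes in 5 lists, 48 had a peak, of which 10 were called lower, 1 was called higher and 37 were not called. Without the 4 members, 6 of 44 (13.6%) were called lower, beside 14.0% lower and 8.26% higher among all 7081 genes of the authors' deposited table. Their median log2 fold change was -0.35, against -0.25 over all genes. The share of lower calls among these 44 genes is thus near that of all genes.

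In the list of cyclins, cyclin-dependent kinases, their inhibitors, RB and E2F proteins, 13 of 37 genes had a peak, 2 were called lower and 0 higher, beside 14.0% lower and 8.26% higher over all genes. The 2 called lower were CCND1 and E2F7, a repressor among the E2F factors, whose 3' UTR peak had -0.55 (FDR 0.0170 in the authors' deposited table). CCND1 stands here with its second-pass peak that runs past the gene's end. CDKN2D, an inhibitor of CDK4 and CDK6, stood just outside the threshold at -0.33 (FDR 0.0501 in the authors' deposited table). The partners of cyclin D1 had 5' UTR peaks that were not called, CDK4 at 0.87 (FDR 0.436) and CDK6 at 0.44 (FDR 0.107), and the related cyclin CCND3 had 1.85 (FDR 0.532) in the authors' deposited table. RB1, the retinoblastoma protein that these kinases phosphorylate, had -0.77 (FDR 0.0851 in the authors' deposited table). These genes other than E2F7 were named after their values were seen. E2F7 had a further exon peak at -0.43 that was not called (FDR 0.0794 in the authors' deposited table). The median of the list was -0.32, and 7 of the 13 values were negative, as were 56.4% over all genes with 1 peak per gene. Without CCND1, which was chosen for its calls, 1 of 12 genes was called lower and the median was 0.004.

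Of 26 genes of replication origin licensing and firing, 6 had a peak, of which 2 were called lower and 0 higher, beside 14.0% and 8.26% over all genes. All 6 values were negative, with a median of -0.48, where 56.4% of all genes were negative. Without CDC6, which was chosen for its call, 1 of 5 genes was called lower and the median was -0.445. Besides CDC6, MCM8, a helicase that also acts in homologous recombination, was called at -0.45 in its 3' UTR (FDR 0.00355 in the authors' deposited table). The origin recognition complex subunits ORC6 and ORC2 had -0.51 (FDR 0.0589) and -0.22 (FDR 0.126) by the authors' deposited table. DBF4B, an activator of the kinase CDC7, had -0.37 (FDR 0.0724), and GINS3, a part of the replicative helicase, -0.92 (FDR 0.168) in the authors' deposited table. The last 4 were named after their values were seen.

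Among topoisomerases, condensin and cohesin, 16 of 27 genes had a peak, 5 were called lower, 0 higher and 11 were not called, beside 14.0% lower and 8.26% higher over all genes. The median was -0.34, and 11 of the 16 values were negative, beside 56.4% over all genes. TOP3A, a type I topoisomerase, had the largest called decrease of the lists at -1.15 (3' UTR, FDR 0.0295 in the authors' deposited table). The condensin subunits SMC2 and NCAPG had -0.72 (FDR 6.31e-05) and -0.58 (FDR 0.0117), and the cohesin subunit SMC3 had -0.36 (FDR 0.00832), in the authors' deposited table. NCAPG had 4 peaks, and the other 3, all in its 3' UTR and not called, had -0.15 (FDR 0.228), 0.60 (FDR 0.0661) and 0.65 (FDR 0.0525) in the authors' deposited table. The 2 positive NCAPG peaks overlap, the last lying wholly inside the other. Positive values that were not called included the topoisomerase TOP3B at 1.86 (FDR 0.0603), the condensin subunit NCAPH at 1.59 (FDR 0.258), the cohesin acetyltransferase ESCO1 at 0.65 (FDR 0.205) and the cohesin subunit SMC1A at 0.17 (FDR 0.0661) in the authors' deposited table. Those 4 were named after their values were seen. TOP2B, the other form of topoisomerase II, had 0 peaks in the rows analysed. At an FDR under 0.01, 3 of the 16 genes were called lower, TOP2A among them, beside 7.96% of all genes. Without TOP2A, which was chosen for its call, 4 of 15 genes were called lower at an FDR under 0.05, with a median of -0.364.

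In the list of the chromosomal passenger complex, mitotic kinases and the spindle checkpoint, 5 of 25 genes had a peak, and AURKB was the 1 that was called lower, with 0 higher, beside 14.0% and 8.26% over all genes. Without AURKB, which was chosen for its call, 0 of 4 genes were called lower. The checkpoint kinase TTK had -0.61 (FDR 0.0933), the cohesin protector SGO1 -0.39 (FDR 0.215), the centriole kinase PLK4 0.41 (FDR 0.307) and AURKC, a relative of AURKB used in meiosis, -0.26 (FDR 0.515) in the authors' deposited table. Those 4 were named after their values were seen. INCENP, BIRC5 and CDCA8, the other subunits of the complex that AURKB works in, had 0 peaks each in the rows analysed.

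The list of CCND1 turnover and upstream regulators had 8 of 16 genes with a peak, 0 called lower and 1 higher, beside 14.0% and 8.26% over all genes, with a median of -0.35. The higher one was AMBRA1, the adaptor that brings cyclin D1 to a ubiquitin ligase, with an exon peak at 0.31 (FDR 0.000170 in the authors' deposited table). That peak spans 46512755 to 46543996 on chromosome 11. FBXO31, an F-box protein also described to act on cyclin D1, had 0.14 (FDR 0.0692), and FBXW7 had 0.40 (FDR 0.0977), in the authors' deposited table. The other 5 of the 8 values were negative, beside 56.4% over all genes, and were not called. They were FBXO4 at -0.99 (FDR 0.359), FBXW8 at -0.49 (FDR 0.144), SKP1 at -0.48 (FDR 0.507), MYC at -0.41 (FDR 0.316) and GSK3B at -0.29 (FDR 0.256). These genes other than AMBRA1 were named after their values were seen. When a log2 fold change of 0.2 or more in size was asked for besides the FDR, no list count changed, while the share of all genes called lower became 13.0%.

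**Figure D5:**
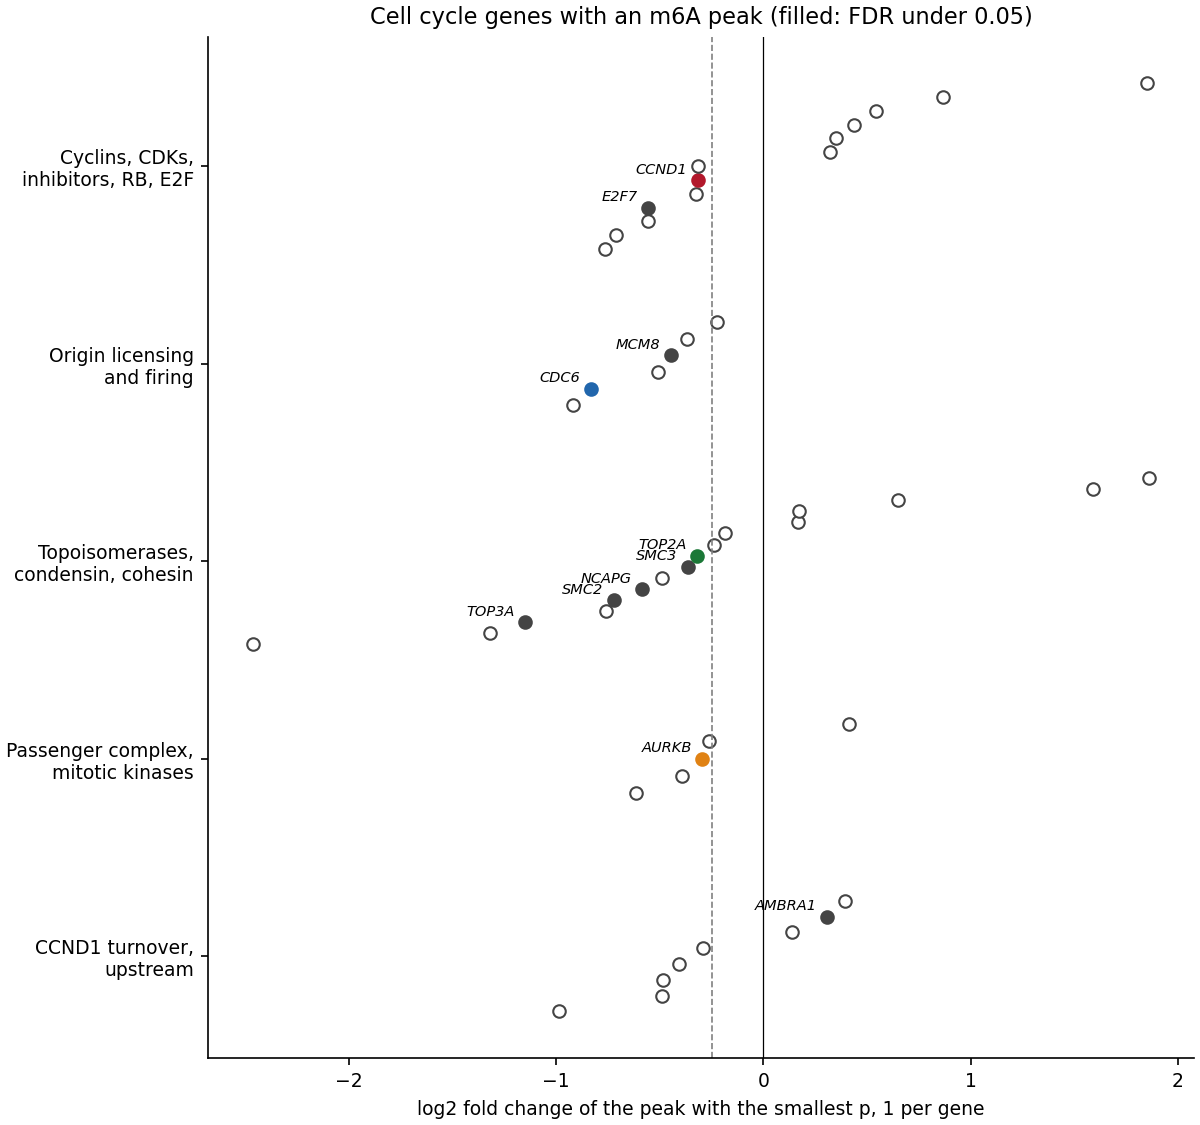
Log2 fold change of each cell cycle gene with a peak, 1 peak per gene, in 5 lists. Filled circles have an FDR under 0.05 and carry the gene symbol, open circles do not, and the dashed line is the median of all genes, -0.25. Called genes lie on the negative side in the upper 4 lists, and AMBRA1 at 0.31 is the 1 called gene on the positive side.

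The pathway annotation in the authors' deposited table gave another choice of genes. The KEGG term for the cell cycle, which holds CCND1 and CDC6, covered 42 genes with a peak, of which 6 (14.3%) were called lower, 3 (7.14%) higher and 33 were not called, with a median log2 fold change of -0.32. These shares are near those of all genes, 14.0% lower and 8.26% higher. However, CCND1 and CDC6, which were chosen for their calls, are among the 6 called lower. No count without them is given, so nothing is read from the lower share. The term for thyroid cancer covered 13 genes, with 2 (15.4%) called lower, CCND1 among them, and 0 higher in the authors' deposited table. Over all genes the shares were 14.0% lower and 8.26% higher. Since CCND1 was chosen for its calls, nothing is read from the lower share of this term either.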

How the data were processed

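The m6A antibody and input libraries of BCPAP control and METTL3 knockdown cells were compared by the submitters, and 1 table of differential peaks was analysed. The builds GRCh38 and hg38 and the tools HISAT2, fastp, StringTie, HOMER, edgeR and ChIPseeker were used by the authors, per the submitters' processing notes, which give them no role. Sources used here do not give the peak caller or any pooling. Per the file headers, the authors deposited a log2 fold change and a p-value per peak, and a score that is the log10 of the FDR, raised here to the linear scale. The 306 peaks without a gene name stayed out of counts by gene.

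The 4 genes, the 5 lists and the thresholds were chosen with earlier results of these data known. From each list up to 4 called genes with the largest absolute change were named. Shares over all peaks or genes are given for comparison, and no test was run here. A fall of over 5000000 bases in position between rows began a new pass. RefSeq promoters matched 3 of the 4 genes. Alternatives were other thresholds, subtraction of medians, merging of peaks within 100 bases, all peaks of a gene, and GGACT for GGAC. Python 3.11.15, pandas 2.3.3, numpy 2.4.6 and matplotlib 3.10.9 were used, and functions were tested on simulated data.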

Additional observations from a re-analysis of the deposited data

How the results depend on the processing

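The count of 8 called lower member peaks was 7 or 8 under the other thresholds tried, and 6 of 7 without the 2 second-pass CCND1 peaks. The genes were picked for such calls, so these counts are a description. The 9 fold changes kept their sign when a median was subtracted, except the upstream CCND1 peak, which turned from -0.15 to 0.082 with the median of all peaks and to 0.143 with that of 3' UTR peaks, by construction of the subtraction. The 4 other CCND1 peaks stayed negative but small, from -0.19 to -0.066 against all peaks and from -0.13 to -0.005 against 3' UTR peaks. Merging peaks within 100 bases left 7 separate places. Of the list counts, lower cyclin, kinase and E2F genes moved from 2 to 6 when all peaks were counted, 5 of which are CCND1 peaks, and to 1 at an FDR under 0.01, and topoisomerase, condensin and cohesin genes moved from 5 to 3 at that threshold, since a stricter threshold calls fewer. GGACT in place of GGAC left the count at 0, which was fixed in advance because GGACT contains GGAC. No paired analysis was possible because the table holds no value per library, and for the same reason no replicate could be left out.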

Other observations

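Like CCND1, many other genes had a peak in the pass of the rows that goes against their strand. The RefSeq promoter table has no entry for CCND1, so it is not among the genes counted next. Of 5030 genes with a strand in that table, 777 (15.4%) had at least 1 such peak. These 909 peaks were called in 15.4% of cases and had a median of -0.20 on the log2 scale by the authors' deposited table, against 18.3% and -0.24 for the 6701 peaks in the pass of their own strand. The cause was not tested.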
